A study of Mus musculus with 8 samples.

Results

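Liver sinusoidal endothelial cells were followed through 10 marker genes (Stab1, Stab2, Clec4g, Lyve1, Kdr, Pecam1, Fcgr2b, Oit3, Gpr182 and Bmp2) in fasted livers of both genotypes. The genes were chosen by symbol, as the rows of the deposited count table that carry these names, and all 10 were found among its 45706 genes. All 8 mice were C57BL/6J females, 4 months old, kept on regular chow and fasted overnight before harvest. The 4 WT mice carried unedited Plin5. In the 4 SA/SA mice, labelled PLIN5 S155A, CRISPR-Cas9 editing had replaced with alanine the serine of the lipid droplet protein perilipin 5 that protein kinase A phosphorylates. The knock-in is in the whole body, so endothelial cells carry the edited gene as hepatocytes do, and the edit had been checked by sequencing in 1 founder. The comparison asks which genes differ in liver when this phosphorylation is lost.

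Sinusoidal endothelial cells line the capillaries of the liver. They have open pores and no continuous basement membrane, so that plasma reaches the hepatocytes directly. They are known for clearing waste macromolecules from blood through scavenger, lectin and Fc receptors, and for sending signals to hepatocytes, among them the BMP ligands that set hepcidin and the WNT ligands that act around the central vein. Their identity depends on VEGF signalling and on transcription factors such as GATA4.

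No marker of these cells passed the test between genotypes, with 0 of 10 at an adjusted p under 0.05, where the share of all 14629 genes tested was 0% (DESeq2 called 0 of 10 markers and 0.041% of all genes). The log2 fold change of SA/SA over WT was below 0 for 7 markers and above 0 for 3. It ran from Bmp2, a BMP ligand, at a fold of 0.681, to Lyve1, a hyaluronan receptor, at a fold of 1.47, and for both the genotypes overlapped. Single mice were more uneven than the means. In SA/SA replicates 2 and 3, Bmp2, Kdr, Fcgr2b, Oit3 and Clec4g were at their lowest levels of all 8 mice, whereas Lyve1 was at its highest.

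The promoter windows of 3 markers are shown. Stab1 had a higher mean in SA/SA mice, and Clec4g and Kdr were among the markers lowest in SA/SA replicates 2 and 3, Clec4g by little and Kdr by more. Whether the sequences bear on these levels was not tested. Each window is the stretch of up to 250 bases before the annotated gene, read in the direction of transcription, from RefSeq on GRCm38.p6, reverse strand. Promoter entries matched 5 of the 10 markers, and of these the windows of Stab2 and Fcgr2b reach into the annotated gene and are not printed. That of Kdr reaches into it by 3 bases, which were left off, so 247 bases are shown. Capitals mark CAGGAA, on either strand, a form of the core that ETS factors bind in many endothelial genes.
Stab1, chr14:31168642-31168891: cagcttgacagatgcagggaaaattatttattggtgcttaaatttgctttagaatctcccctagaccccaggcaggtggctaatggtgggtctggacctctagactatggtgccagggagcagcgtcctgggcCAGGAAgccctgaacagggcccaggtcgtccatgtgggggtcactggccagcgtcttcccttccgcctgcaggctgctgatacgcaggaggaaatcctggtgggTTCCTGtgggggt
Clec4g, chr8:3720652-3720901: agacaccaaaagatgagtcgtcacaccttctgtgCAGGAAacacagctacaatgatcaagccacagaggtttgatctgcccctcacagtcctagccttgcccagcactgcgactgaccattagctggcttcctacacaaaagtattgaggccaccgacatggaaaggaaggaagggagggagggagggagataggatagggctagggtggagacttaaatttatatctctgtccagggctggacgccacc
Kdr, chr5:75978459-75978705: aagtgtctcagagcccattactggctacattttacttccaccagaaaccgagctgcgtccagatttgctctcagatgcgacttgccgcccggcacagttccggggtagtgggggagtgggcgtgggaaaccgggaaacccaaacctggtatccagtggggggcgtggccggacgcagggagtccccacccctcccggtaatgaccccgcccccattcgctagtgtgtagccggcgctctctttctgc
In 250-base windows, CAGGAA was found on either strand for 3 of the 5 markers (Stab1, Stab2 and Clec4g) and in 25.7% of all 32851 promoters. A match describes letters only, and a window without one says nothing of the factor.

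GEO's labels give liver as tissue but hepatocytes as cell type. Every one of the 10 endothelial markers was nevertheless counted in every library, from 147 counts for Lyve1 to 4095 counts for Stab1, and all 10 passed the filter on low counts. Markers of Kupffer cells and of stellate cells were counted as well, and the values are read as those of whole liver. In such samples fewer endothelial cells and less RNA per cell cannot be told apart. The total count per library ran from 39709785 to 54540864. Levels are in CPM, counts scaled to the effective library size, ± is the SD over the 4 mice of a genotype, and SE is a standard error on the log2 scale. The edited gene Plin5 was at 254, 194, 183 and 194 CPM in the WT livers (replicates 1 to 4) and 457, 276, 192 and 386 CPM in the SA/SA livers. SA/SA replicate 3 was inside the WT range and the 3 others were above it (log2 fold change 0.67, SE 0.24, adjusted p = 0.993 in edgeR), and gene counts cannot show the edited codon. The numbers in the sample labels form a low series (89 to 123) and a high series (830 to 869), each with 2 WT and 2 SA/SA mice. Replicates 1 and 4 of each genotype are in the low series, replicates 2 and 3 in the high series. What the numbers stand for is not stated, and differences are also given within each series.

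Levels of different markers can be compared only per length. Per kilobase of exon, Clec4g (LSECtin, a C-type lectin) stood above all other markers at 15.1 ± 2.68 RPKM (SD, n = 8 mice), and its lowest mouse, at 11.8 RPKM, was above the highest mouse of Stab1, at 8.47 RPKM. Stab1 followed with a mean of 5.99 ± 1.54, Oit3 with 5.33 ± 1.38, Stab2 with 4.84 ± 0.880 and Fcgr2b with 4.61 ± 1.14 RPKM. Below these were Gpr182 at 3.70 ± 0.670, Bmp2 at 2.86 ± 0.846, Kdr at 2.46 ± 0.823, Lyve1 at 2.25 ± 1.41 and Pecam1 at 2.10 ± 0.258 RPKM. Apart from the step from Clec4g to Stab1, which held in 8 of 8 mice, the ranges of neighbours in this order overlapped. Stab1 was above Oit3 in only 3 of 8 mice, and Lyve1 above Pecam1 in 3 of 8. With the length of the longest transcript in place of all exons, Fcgr2b was at 7.54 RPKM, close to Stab1 at 7.71, and Clec4g was again the highest at 25.7 RPKM. Pecam1, the lowest of 10 by exon length, was then at 3.81 RPKM, above Kdr at 3.75 and above Gpr182, Bmp2 and Lyve1, so the order of the lower markers depends on the length used.

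**Figure D1:**
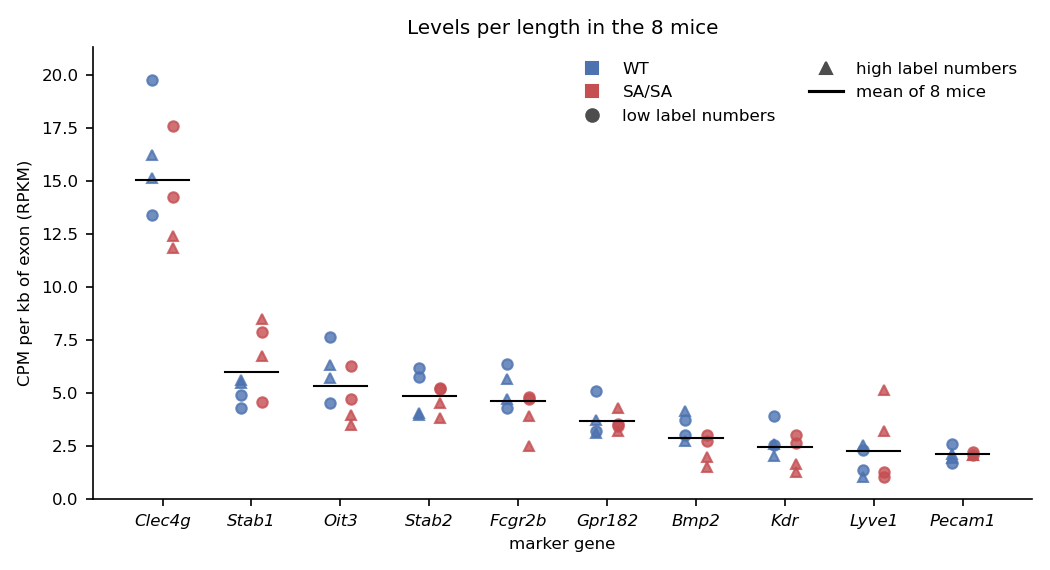
Level per kilobase of exon (RPKM, linear axis) of the 10 markers, with 1 point per mouse, circles for low and triangles for high label numbers, and a line at the mean of 8 mice. Clec4g, with a mean of 15.1 RPKM, stands apart, and the 9 other markers overlap with their neighbours in the order.

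The stabilins are a pair of large scavenger receptors that take up hyaluronan, modified lipoproteins and other waste. Stab1 (ENSMUSG00000042286, chr14:31139013-31168641, reverse strand, all on GRCm38) is also made by macrophages. Its level was 44.2, 57.9, 56.4 and 50.2 CPM in the WT livers (replicates 1 to 4) and 47.3, 69.3, 87.1 and 81.0 CPM in the SA/SA livers. SA/SA replicate 1 was within the WT range, and the 3 other SA/SA mice were above all WT mice. For Stab1 the log2 fold change was 0.45 (SE 0.18, 95% interval 0.045 to 0.85, adjusted p = 0.993 in edgeR), with 0.39 within the low and 0.44 within the high series. Stab1 and Bmp2 were the 2 of 10 markers at an unadjusted p under 0.05 in edgeR, where 3.4% of all genes were, and Stab1 was the 1 above 0, with an unadjusted p of 0.0326 (1.42% of all genes). The exact permutation test gave p = 0.114 (two-sided, 4 mice against 4). Summed Kupffer cell and macrophage markers, 13 of 13 tested and 0 at 0 in all libraries, ran from 308 to 609.8 CPM in WT and from 311 to 676 CPM in SA/SA livers. Over all 8 mice 13 of 13 of them had a log2 fold change above 0, as Stab1 did, with a median of 0.20 and 0 at an unadjusted p under 0.05. Their median difference was -0.40 within the low series and 0.83 within the high series, and their part in the level of Stab1 was not tested. In the annotation Stab1 shares 112 exon bases with Nt5dc2 on the opposite strand. Stab2, Clec4g, Fcgr2b and Gpr182 each share at least 74 exon bases with genes on the opposite strand, and whether counting used strand is not given in the sources used here.

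Stab2 (ENSMUSG00000035459, chr10:86841198-87008025, reverse strand) is the stabilin more restricted to sinusoidal endothelium. Its level was 50.3, 35.6, 34.9 and 54.2 CPM in the WT livers (replicates 1 to 4) and 45.3, 33.4, 39.6 and 45.8 CPM in the SA/SA livers. The genotypes overlapped throughout, with a log2 fold change of -0.093 (SE 0.17, 95% interval -0.47 to 0.29, adjusted p = 0.996 in edgeR). Stab2 divided by label number instead. The 4 mice of the low series were between 45.3 and 54.2 CPM and the 4 of the high series between 33.4 and 39.6 CPM. High minus low came to -0.45 on the log2 scale (SE 0.097, unadjusted p = 0.00121, adjusted p = 0.159 in edgeR, with genotype in the model). The ratio of Stab1 to Stab2 in CPM was 0.878, 1.63, 1.62 and 0.926 in WT replicates 1 to 4. In SA/SA replicates 1 to 4 this ratio was 1.04, 2.08, 2.20 and 1.77. Within each genotype it was higher in both mice of the high series than in both of the low series.

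Fcgr2b (ENSMUSG00000026656, chr1:170958617-170976547, reverse strand) encodes the inhibitory Fc receptor that clears small immune complexes in the sinusoid, and B cells and macrophages express it too. Its level was 24.8, 27.3, 32.7 and 36.7 CPM in the WT livers (replicates 1 to 4) and 27.9, 14.5, 22.6 and 27.2 CPM in the SA/SA livers. Both SA/SA mice of the high series were below the 6 other mice, and both of the low series were within the WT range. Fcgr2b had a log2 fold change of -0.40 (SE 0.21, 95% interval -0.85 to 0.060, adjusted p = 0.993 in edgeR), made of -0.13 within the low and -0.72 within the high series. The 10 lymphocyte markers summed to 904 CPM in SA/SA replicate 3 and to between 12.9 and 30.8 CPM in the 7 other mice. Most of the sum in SA/SA replicate 3 was Igkc and Jchain of plasma cells, whose levels are given below. All 10 lymphocyte markers were tested and 0 were at 0 in all libraries, and their part in the level of Fcgr2b was not tested.

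Clec4g (ENSMUSG00000074491, chr8:3707064-3720651, reverse strand) binds glycans on pathogens and on T cells. Its level was 33.0, 37.2, 39.9 and 48.6 CPM in the WT livers (replicates 1 to 4) and 35.0, 30.5, 29.2 and 43.2 CPM in the SA/SA livers. SA/SA replicates 2 and 3 were the lowest of the 8, though only just below WT replicate 1. Clec4g differed by -0.20 on the log2 scale (SE 0.16, 95% interval -0.55 to 0.15, adjusted p = 0.993 in edgeR), and by -0.090 without WT replicate 4.

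Lyve1 (ENSMUSG00000030787, chr7:110850607-110863239, reverse strand) encodes a hyaluronan receptor shared with lymphatic endothelium and some macrophages. It was the most variable marker, with a coefficient of variation of 62.8% over the 8 mice, where the 9 others were between 12.3% (Pecam1) and 33.5% (Kdr). Its level was 3.99, 7.37, 3.10 and 6.71 CPM in the WT livers (replicates 1 to 4) and 3.78, 9.41, 15.0 and 3.08 CPM in the SA/SA livers. The 2 highest mice were the SA/SA mice of the high series, and the lowest was an SA/SA mouse of the low series. The estimate of 0.56 (SE 0.49, 95% interval -0.53 to 1.64, adjusted p = 0.993 in edgeR) joined opposite differences, -0.59 within the low and 1.31 within the high series. Tested as an interaction, the series differed by 1.86 on the log2 scale (SE 0.61, unadjusted p = 0.0147, adjusted p = 0.335 in edgeR). Lyve1 was the 1 marker of 10 at an unadjusted p under 0.05 in the interaction, where 11.1% of all genes were, and 0 of 10 passed the adjustment in edgeR (0% of all genes) or in limma-voom (0.00684%). Without SA/SA replicate 3 its log2 fold change was 0.034. The lymphatic markers Pdpn, Ccl21a and Mmrn1 together were at 0.620 and 1.16 CPM in the 2 mice with the highest Lyve1, and between 0.816 and 1.82 CPM in the 6 others.

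Kdr (ENSMUSG00000062960, chr5:75932827-75978458, reverse strand) encodes VEGF receptor 2, the main signalling receptor for VEGFA. Its level was 22.9, 18.2, 23.3 and 35.5 CPM in the WT livers (replicates 1 to 4) and 23.8, 11.6, 15.1 and 27.1 CPM in the SA/SA livers. The highest mouse had 3.08 times the level of the lowest, and SA/SA replicates 2 and 3 were again the lowest pair. Kdr had a log2 fold change of -0.37 (SE 0.28, 95% interval -0.99 to 0.26, adjusted p = 0.993 in edgeR), and without these 2 mice it was 0.032. High minus low series was -0.71 on the log2 scale (SE 0.18, unadjusted p = 0.00286 in edgeR), which did not pass over all genes (adjusted p = 0.200 in edgeR). Stab2 and Kdr, both lower in the high series, were the 2 of 10 markers at an unadjusted p under 0.05 between the series, where 12.8% of all genes were (6.19% lower), and 0 of 10 passed the adjustment (0% of all genes).

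Bmp2 (ENSMUSG00000027358, chr2:133552159-133562885, forward strand) is a BMP ligand by which endothelial cells keep up hepcidin in hepatocytes. Its level was 10.7, 9.75, 14.8 and 13.3 CPM in the WT livers (replicates 1 to 4) and 9.75, 5.44, 7.10 and 10.7 CPM in the SA/SA livers. The SA/SA mice of the low series were in the lower part of the WT range, and those of the high series were below it. Bmp2 had a log2 fold change of -0.55 (SE 0.22, 95% interval -1.05 to -0.056, adjusted p = 0.993 in edgeR), with an unadjusted p of 0.0326 in edgeR, where 1.98% of all genes were lower at an unadjusted p under 0.05. The exact permutation test gave p = 0.0857 (two-sided, 4 mice against 4, smallest p allowed 0.0286). The difference was -0.22 within the low and -0.94 within the high series, and that between the series had an adjusted p of 0.471 in edgeR.

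Oit3 (ENSMUSG00000009654, chr10:59422958-59441778, reverse strand) encodes a secreted glycoprotein. Its level was 12.7, 15.9, 17.6 and 21.3 CPM in the WT livers (replicates 1 to 4) and 17.5, 9.78, 11.1 and 13.1 CPM in the SA/SA livers. Again SA/SA replicates 2 and 3 were the lowest. Its log2 fold change of -0.39 (SE 0.21, 95% interval -0.85 to 0.070, adjusted p = 0.993 in edgeR) was made of -0.12 within the low and -0.68 within the high series. Gpr182 and Pecam1 had the smallest log2 fold changes. Gpr182 (ENSMUSG00000058396, chr10:127747276-127751732, reverse strand), an atypical chemokine receptor, was measured at 12.7, 14.7, 12.3 and 20.1 CPM in the WT livers (replicates 1 to 4) and 14.1, 12.7, 16.9 and 13.6 CPM in the SA/SA livers. WT replicate 4 was the highest mouse and the SA/SA mice lay inside the WT range, with a log2 fold change of -0.062 (SE 0.17, 95% interval -0.44 to 0.32, adjusted p = 0.996 in edgeR). Pecam1 (ENSMUSG00000020717, chr11:106654217-106750628, reverse strand) is the adhesion molecule CD31 of endothelial cells, platelets and some leukocytes. Its level was 10.5, 13.1, 12.1 and 16.2 CPM in the WT livers (replicates 1 to 4) and 13.1, 12.9, 13.0 and 13.8 CPM in the SA/SA livers. Here too all SA/SA mice lay inside the WT range, and the log2 fold change was 0.023 (SE 0.14, 95% interval -0.29 to 0.33, adjusted p = 0.999 in edgeR). The intervals of 8 of the 10 markers included 0, Gpr182 and Pecam1 among them. With 4 mice a genotype, true differences within an interval are not excluded.

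**Figure D2:**
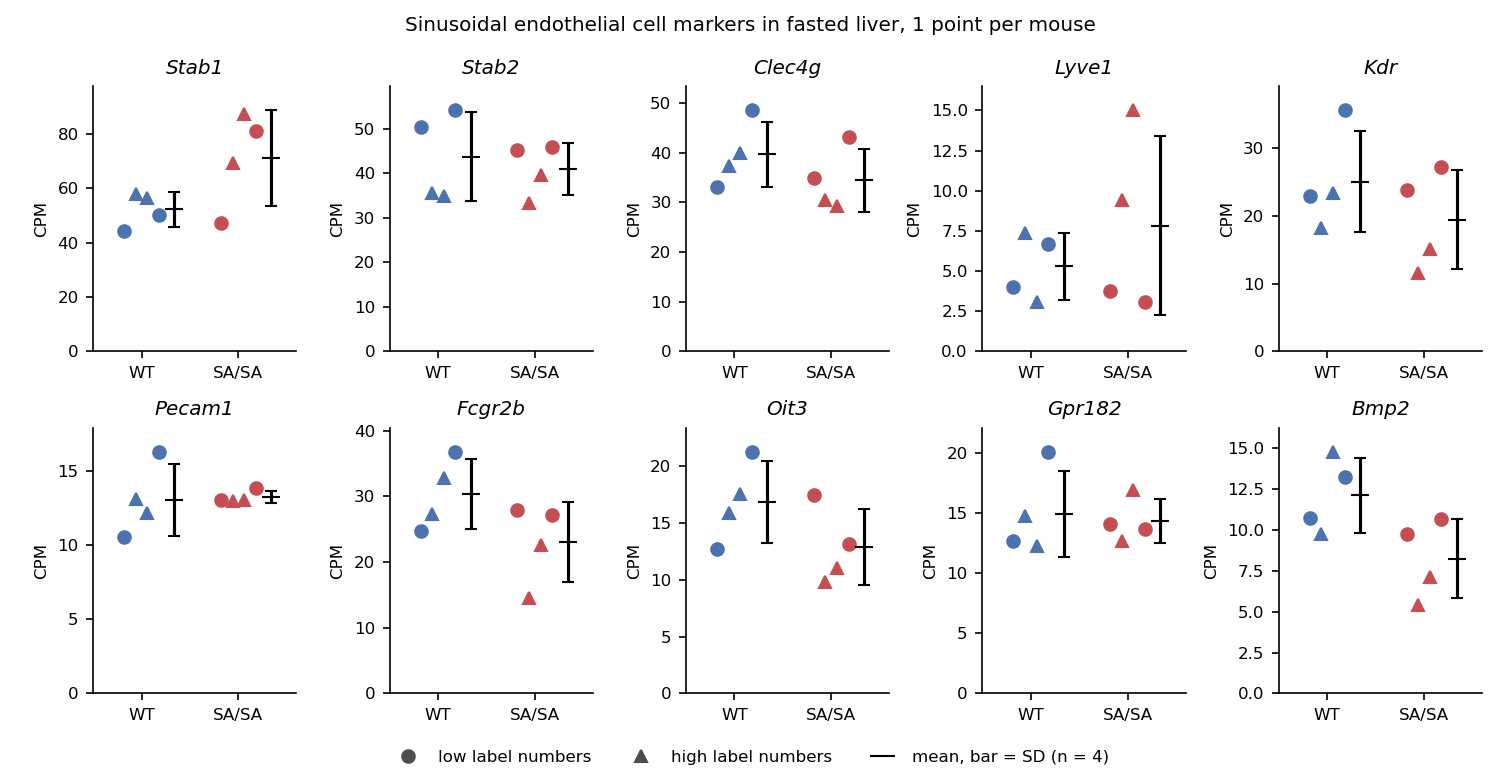
CPM (linear axes from 0) of each marker in the 4 WT and the 4 SA/SA mice, with 1 point per mouse, circles for low and triangles for high label numbers, and bars for mean and SD. The genotypes overlap for every marker, and the SA/SA triangles are lowest for Bmp2, Kdr, Fcgr2b, Oit3 and Clec4g and highest for Lyve1.

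Across the 10 markers, 0 had genotypes that did not overlap, where 2.3% of all genes did. The median log2 fold change was -0.15 against -0.0050 for all genes tested, and 7 of 10 markers were below 0 where 51.2% of all genes were. Summed over the 10 markers, the level was 226, 237, 247 and 303 CPM in WT replicates 1 to 4 and 237, 209, 257 and 279 CPM in SA/SA replicates 1 to 4. The means of the sum, 253 ± 34.2 CPM for WT and 246 ± 29.4 CPM for SA/SA livers, differed by less than the SD of either genotype. This sum joins opposite differences. Stab1, the marker with the highest CPM, averaged 52.2 ± 6.28 CPM in WT and 71.2 ± 17.6 CPM in SA/SA livers, while most other markers were lower. WT replicate 4 was the highest mouse for 7 of the 10 markers and SA/SA replicate 2 the lowest for 5.

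SA/SA replicates 2 and 3 were the 2 lowest of the 8 mice for 5 of 10 markers, where 9.94% of all genes showed this, and the 2 highest for 1 of 10, where 9.11% of all genes did. This grouping of mice was singled out after the values were seen. For Fcgr2b they were at 14.5 and 22.6 CPM and the 6 other mice between 24.8 and 36.7 CPM. These mice stood apart in other genes as well. The sum of 9 hepatocyte markers, Alb among them, was 133620 and 138420 CPM in them and between 96643 and 119034 CPM in the 6 others, and their TMM factors, which scale library size, were the lowest of the 8 at 0.925 and 0.955. Summed Kupffer cell markers were 676 and 500.0 CPM in them, against 308 to 609.8 CPM in the others. The part of these values in the marker levels was not tested. Within the low series the median difference of the 10 markers between genotypes was -0.15, with 8 of 10 below 0 (50.6% of all genes). Within the high series it was -0.16, with 5 of 10 below 0 (51.1% of all genes).

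**Figure D3:**
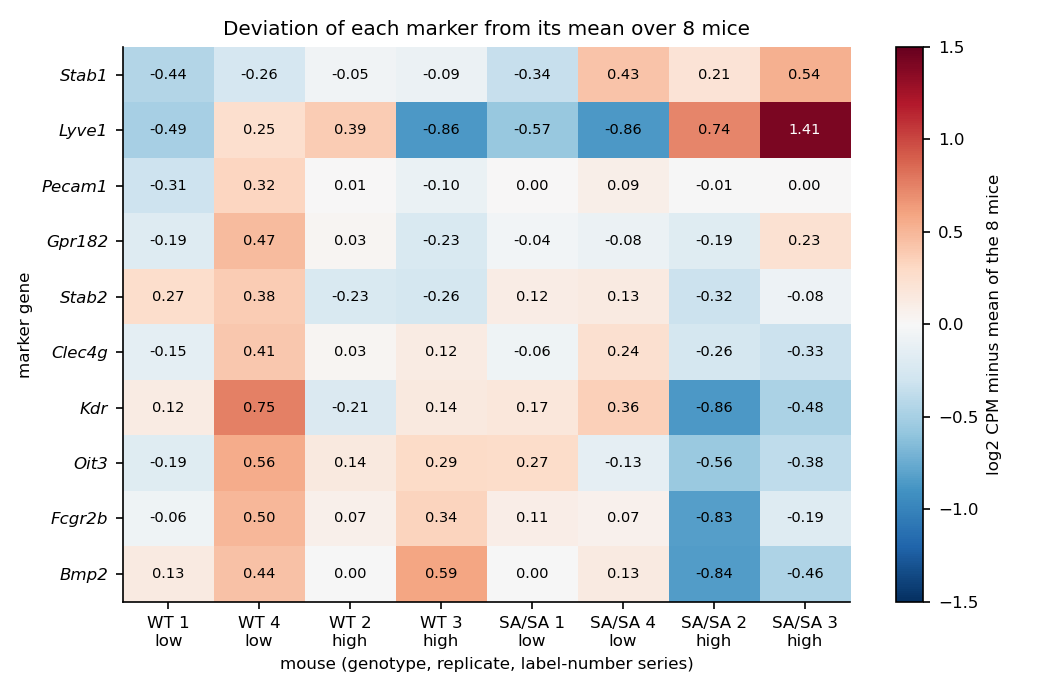
Log2 CPM of each marker in each mouse minus the mean of the 8 mice, as colour and number, with mice ordered by genotype and label-number series. WT replicate 4 is above the mean for 9 of the 10 markers, and both high-series SA/SA mice are below it for Stab2, Clec4g, Kdr, Oit3, Fcgr2b and Bmp2 and above it for Lyve1 and Stab1.

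**Figure D4:**
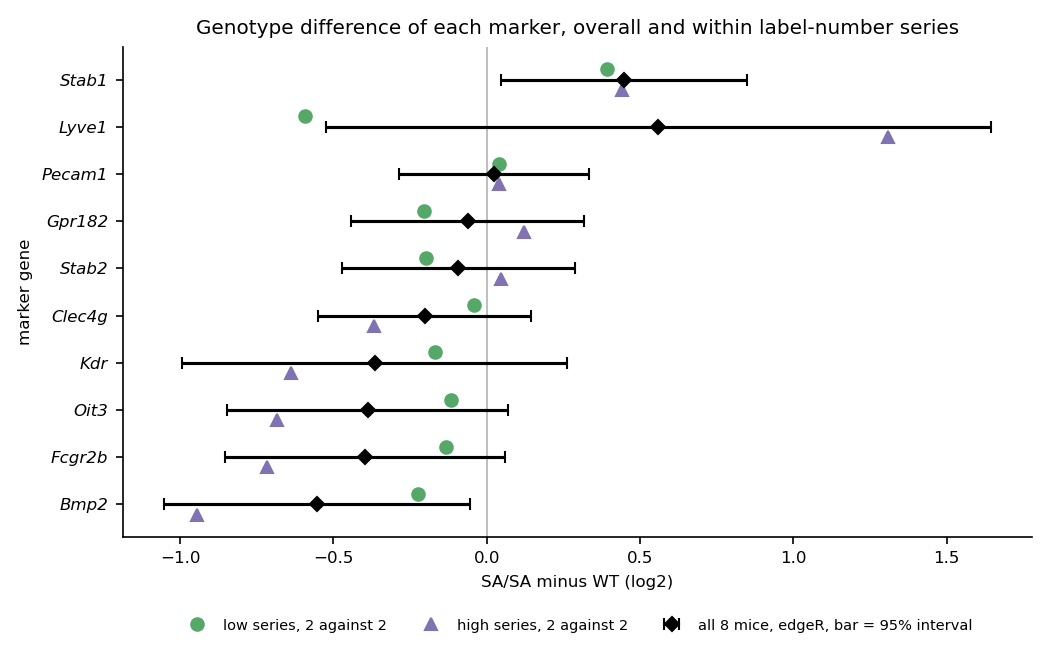
SA/SA minus WT (log2) for each marker in all 8 mice (diamonds with 95% intervals from edgeR) and within the low and the high label-number series (2 mice against 2, no error). Intervals of Stab1 and Bmp2 exclude 0 before adjustment over all genes, and Lyve1 lies on opposite sides of 0 in the 2 series, at -0.59 and 1.31.

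Other genes of these cells were read from lists, some of which share genes. Of all genes tested 51.2% had a log2 fold change below 0, the share to set beside each list below. All 10 other sinusoidal endothelial genes were tested, 0 passed, and 9 were below 0, with a median of -0.22. Of these 10, 1 was above 0 within the low and 3 within the high series. The lowest p among them belonged to F8, the coagulation factor that these cells make, at 8.35, 6.66, 6.27 and 7.90 CPM in WT and 6.14, 4.45, 5.09 and 5.16 CPM in SA/SA livers. For F8 all SA/SA mice were below all WT mice, by little at the edge, with a log2 fold change of -0.49 (SE 0.16, adjusted p = 0.993 in edgeR) and -0.53 and -0.44 within the low and high series. Dnase1l3, a secreted nuclease, averaged 34.4 ± 7.62 CPM in WT and 27.4 ± 5.29 CPM in SA/SA livers and did not pass (adjusted p = 0.993 in edgeR). Of 18 genes of endothelium in general, such as Cdh5 and Tie1, 16 were below 0, with a median of -0.17, and 0 had an unadjusted p under 0.05. Within the low series 8 of these 18 were above 0, and within the high series 3.

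Along the sinusoid, 3 of 6 genes of the pericentral side (Wnt2, Wnt9b, Rspo3, Kit, Thbd, Cdh13) were above 0 and 3 below, with a median of -0.051. All 6 genes of the periportal side (Ltbp4, Efnb2, Dll4, Ntn4, Adgrg6, Msr1) were below 0, with a median of -0.30, and 0 of 6 had an unadjusted p under 0.05. Within each series 1 of the 6 periportal genes was above 0. Whether the sides differ was not tested. Genes of large vessels and ordinary capillaries, such as Vwf and Plvap, were below 0 for 5 of 7 (median -0.11). The direction differed by series, with 5 of 7 above 0 in the low (median 0.060) and 3 of 7 in the high series (median -0.13). Of 11 endothelial transcription factors, 10 were below 0, with a median of -0.27, and within each series 3 of 11 were above 0. Gata4 averaged 17.9 ± 1.48 CPM in WT and 15.8 ± 3.77 CPM in SA/SA livers, and the genotypes overlapped. AGATAA, 1 form of the motif that GATA factors bind, was found on either strand in the promoter windows of 0 of the 5 matched markers. It was found in 9.99% of all promoters, and it can share at most 1 end base with the ETS motif. Other forms were not searched, so these windows may still hold GATA sites.

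**Figure D5:**
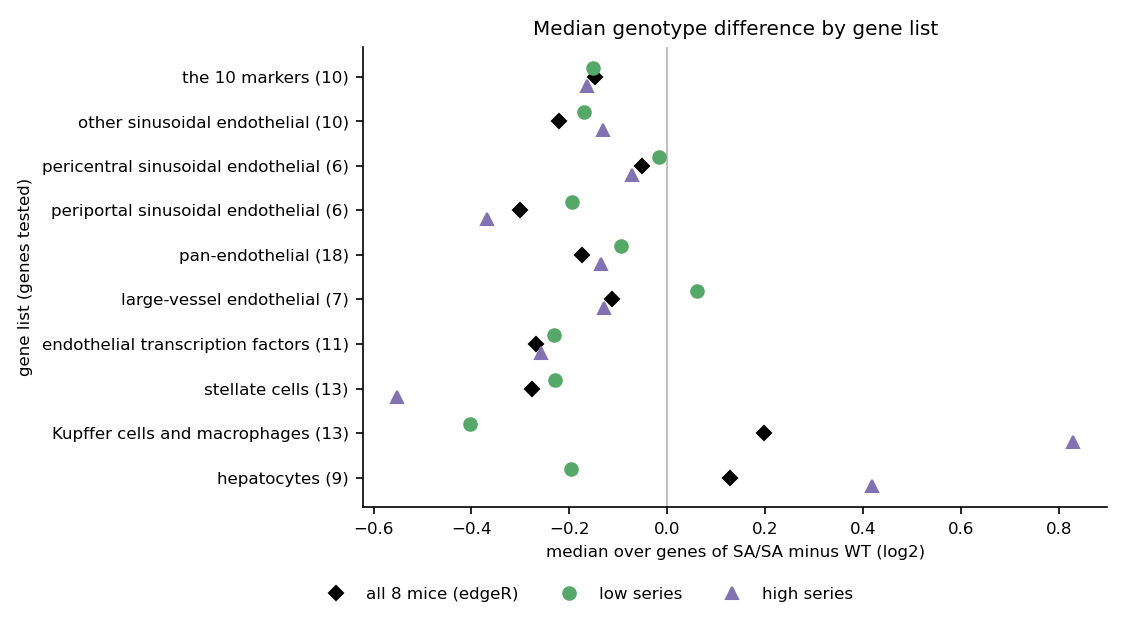
Median over the genes of a list of SA/SA minus WT (log2), in all 8 mice (diamonds) and within the low (circles) and the high (triangles) label-number series, with the number of genes tested in brackets. The medians of the endothelial lists lie between -0.37 and 0.060, while Kupffer cell markers go from -0.40 in the low to 0.83 in the high series.

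In the VEGF and angiopoietin pathway, to which Kdr belongs, 12 of 13 other genes were tested, 0 passed, and 10 were below 0 (median -0.13). Nrp1, the VEGF co-receptor that pairs with Kdr, had the lowest p, with 63.5, 38.6, 50.9 and 57.6 CPM in WT and 39.0, 33.7, 27.7 and 38.0 CPM in SA/SA livers. WT replicate 2 was just within the SA/SA range and the 3 other WT mice were above it. Nrp1 had a log2 fold change of -0.61 (SE 0.17, adjusted p = 0.993 in edgeR), at -0.65 and -0.54 within the low and high series. The ligand Vegfa averaged 161 ± 23.1 CPM in WT and 160.1 ± 16.1 CPM in SA/SA livers.

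In the BMP and hepcidin pathway, to which Bmp2 belongs, all 19 other genes were tested, 0 passed, and 13 were below 0 (median -0.064). Bmp6, the other endothelial ligand, averaged 2.92 ± 0.648 CPM in WT and 2.65 ± 1.07 CPM in SA/SA livers. Hamp, the hepcidin gene that these ligands drive, was at 1459, 1456, 859 and 819 CPM in WT and 1558, 416, 735 and 1327 CPM in SA/SA livers. SA/SA replicates 2 and 3 were the 2 lowest of the 8 mice for Hamp, Bmp6 and Atoh8, 3 of the 19 genes (9.94% of all genes). They were the 2 highest for 1 of 19 (9.11% of all genes). That gene was Hjv (listed as Hfe2), the hemojuvelin gene, at 116 and 99.9 CPM in them and between 84.3 and 94.1 CPM in the 6 others. Bmp6 was at 1.68 and 1.80 CPM in them and between 2.07 and 3.82 CPM in the 6 others. Atoh8 was at 22.8 and 20.3 CPM in them and between 33.1 and 60.6 CPM in the 6 others. Hamp2, the close copy of Hamp, was at 72.5, 289, 181 and 113 CPM in WT and 92.2, 247, 299.5 and 118 CPM in SA/SA livers. In both genotypes Hamp2 divided by label number, with 181 to 299.5 CPM in the high series and 72.5 to 118 CPM in the low series. High minus low was 1.36 on the log2 scale (unadjusted p = 4.97e-05 in edgeR, with genotype in the model). Between the series 0% of all genes passed the adjustment. Hamp2 was not low in SA/SA replicates 2 and 3, and how reads were split between the copies is uncertain. Id1, a target of BMP signalling, was at 14.6, 51.4, 16.2 and 26.6 CPM in WT and 32.6, 30.7, 30.7 and 39.7 CPM in SA/SA livers, where these mice lay inside the WT range. The difference in Hamp was 0.40 within the low and -1.02 within the high series, and over all mice it did not pass (adjusted p = 0.996 in edgeR). Neo1, the neogenin receptor that binds hemojuvelin, averaged 16.0 ± 1.26 CPM in WT and 12.3 ± 1.17 CPM in SA/SA livers, with all SA/SA mice below all WT mice and a log2 fold change of -0.38 (SE 0.11, adjusted p = 0.993 in edgeR).

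Among 9 genes of hyaluronan synthesis, binding and breakdown, 5 were tested, and Has2, a hyaluronan synthase, was at 0 counts in all libraries. Cemip2 (Tmem2 in the table), a cell surface hyaluronidase, had a log2 fold change of -0.41 (SE 0.14, adjusted p = 0.993 in edgeR). Of 11 other scavenger and endocytic receptors, 5 were above and 6 below 0 (median -0.026).

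Lists of other liver cells went both ways. Above 0 were 13 of 13 Kupffer cell markers (median 0.20), 10 of 10 lymphocyte markers (median 0.84) and 7 of 9 hepatocyte markers (median 0.13). Within the low series 1 of 13, 6 of 10 and 2 of 9 were above 0 (medians -0.40, 0.14 and -0.20). Within the high series these were 13 of 13, 10 of 10 and 8 of 9 (medians 0.83, 1.15 and 0.42). Stellate cells, the neighbours of the endothelium in the sinusoid, had 12 of 13 markers below 0 (median -0.28), and 0 of 13 were at 0 counts in all libraries. Their sum ran from 544 to 704 CPM in WT and from 411 to 654 CPM in SA/SA livers. Colec10, a collectin, had the lowest p among them, with a log2 fold change of -0.47 (SE 0.18, adjusted p = 0.993 in edgeR). Of 6 cholangiocyte markers tested, 5 were below 0, among them Pkhd1, the fibrocystin gene, at -0.45 (SE 0.17, adjusted p = 0.993 in edgeR). Markers of platelets, which also carry Pecam1, summed to 3.47 to 7.85 CPM in WT and 6.18 to 8.62 CPM in SA/SA livers, and red blood cell markers were below 0 for 5 of 5 (median -0.54). Of pancreatic acinar and adipocyte markers, 0 passed the filter on low counts. The 7 acinar markers summed to 24.0 CPM in WT replicate 2 and to at most 0.375 CPM in the 7 other libraries. Without WT replicate 2 the endothelial markers again had 0 passing, 2 at an unadjusted p under 0.05 (4.61% of all genes) and 3 above 0. Over all 20 related lists 159 of 179 listed genes were tested, 0 passed, and 2 were above and 6 below 0 at an unadjusted p under 0.05, where 1.42% and 1.98% of all genes were. The 2 above 0, Igkc and Jchain of plasma cells, reached 806 and 73.8 CPM in SA/SA replicate 3 and at most 21.2 and 2.07 CPM in the other mice.

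The genes whose levels went most like the markers over the 8 mice were Epb4.1l2, Coro2b, Rab3il1, Frmd4a, Pdlim2, Gcfc2, Srgap3, Vsig10, Fam60a and Nedd9. Likeness was measured as Pearson's r to the mean of the 10 standardized markers, among 12108 genes with a mean of at least 1 CPM, and was between 0.934 and 0.972 for these 10 genes (Spearman's rho 0.595 to 0.976). By Spearman's rho, Gcfc2 was the 1 gene of the 10 that was again among the 10 closest. Of the markers themselves, Fcgr2b (0.839), Clec4g (0.838) and Kdr (0.835) had the highest r to their common profile, and Lyve1 (-0.14) and Stab1 (-0.15) the lowest. The values are a description over 8 mice, and all genes come from the same 8 libraries.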

How the data were processed

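Livers of 4 WT and 4 SA/SA mice were analysed, 1 library per mouse. The authors prepared stranded mRNA libraries, read as 100 bp pairs, and deposited estimated counts per gene from salmon, scaled for average transcript length and not for library size. The submitters' processing notes name bcl2fastq, STAR, SAMtools, MultiQC, DESeq2 and build GRCm38. The salmon version, the annotation and the use of strand in counting are not given in the sources used here. Columns were matched to mice by the number in the label.

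The estimated counts were rounded. Genes were kept with filterByExpr (14629 of 45706) and tested with the quasi-likelihood test of edgeR 4.0.16 (R 4.3.3) after TMM normalization, with no covariate and Benjamini-Hochberg adjustment over all genes tested. Standard errors came from the F statistic. CPM uses TMM-scaled library sizes, and log2 CPM a prior count of 2. Differences within a series are differences of mean log2 CPM. RPKM is CPM per kilobase of exon of GENCODE M21 (GRCm38), which holds 45143 of the 45706 gene identifiers and all 10 markers. The exact permutation test was two-sided on log2 CPM. The tests were checked on simulated data. Alternatives were DESeq2 1.42.0, limma-voom (limma 3.58.1), other scalings and filters, a robust fit, blocks and leaving out mice. No 2 libraries were copies (smallest chi-square per gene 40.4, between SA/SA replicates 2 and 3).

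The markers and lists were chosen with earlier results of these data known. Beside the 10 markers and Plin5, genes named were those of each list with the lowest unadjusted p under 0.05 (at most 2 a list), the 10 most similar genes, and markers given beside a result. Further genes (Dnase1l3, Gata4, Vegfa, Bmp6, Hamp, Hamp2, Atoh8, Hjv, Id1) were named after their values were seen.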

Additional observations from a re-analysis of the deposited data

Results flagged for a closer look

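Over 22 groups of 4 mice, 1 mouse stood far from the rest of its group, where chance gives about 1 in 20. For Pecam1, SA/SA replicate 4 had 13.8 CPM and the others of its genotype had 12.9 to 13.1 CPM, a small distance set against 3 values that lay close together.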

How the results depend on the processing

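No marker passed an adjusted p of 0.05 in any alternative, and all log2 fold changes kept their sign under the other tools, scalings, filters and blocks, except that of Pecam1. Pecam1 was at -0.016 with library size alone, at -0.063 without WT replicate 1 and at -0.0077 without WT replicate 3. DESeq2 called 6 genes, none of them a marker. With the replicate number as a block, 4 markers in place of 2 had an unadjusted p under 0.05 (3.96% of all genes) and 0 passed. With the series as a block there were 3, Kdr the one added (4.24% of all genes). The deviations of same-numbered mice, which also share the label-number series, correlated at 0.056, 0.17, -0.11 and 0.13. WT replicates 1, 2 and 4 and SA/SA replicates 1 and 2 correlated best with the mouse of their own number. WT replicate 3 and SA/SA replicates 3 and 4 correlated best with another mouse. The labels do not say that same-numbered mice are pairs, and these correlations cannot settle it. Under pairing by number 0 genes passed. Leaving out 1 mouse at a time, the number of markers at an unadjusted p under 0.05 ran from 0 to 4. It was 0 without WT replicate 4 (3.08% of all genes) or SA/SA replicate 3 (2.43%), and 4 without SA/SA replicate 1 (6.02%). The number with a higher mean in SA/SA mice ran from 2 to 5 (without WT replicate 4). The median log2 fold change ran from -0.24 to -0.031. The log2 fold change of Stab2 then ran from -0.19 to 0.027 (WT replicate 4 left out; 0.0017 with SA/SA replicate 2 left out), that of Gpr182 from -0.15 to 0.11 (WT replicate 4) and that of Pecam1 from -0.063 to 0.15 (WT replicate 4). Others kept their sign but moved: Clec4g from -0.33 (SA/SA replicate 4 left out) to -0.090 (WT replicate 4), Kdr from -0.57 (SA/SA replicate 4) to -0.15 (WT replicate 4), Oit3 from -0.57 (SA/SA replicate 1) to -0.26 (WT replicate 4), Fcgr2b from -0.50 (SA/SA replicate 1) to -0.22 (SA/SA replicate 2) and Lyve1 from 0.034 (SA/SA replicate 3) to 0.83 (SA/SA replicate 4). Some fits were added after seeing the data. Without both high-series SA/SA mice, 0 markers had an unadjusted p under 0.05 (4% of all genes). The log2 fold changes were then 0.065 for Stab2, -0.61 for Lyve1 and 0.032 for Kdr. In the low series alone there were 0 such markers (3.74% of all genes) and Lyve1 was at -0.64. In the high series alone, 8 genes and 0 markers passed, 7 markers had an unadjusted p under 0.05 (13.1% of all genes), 5 were higher, and Stab2 and Gpr182 were at 0.052 and 0.13. The cause of these shifts was not tested. Spearman's rho kept 1 of the 10 most similar genes. With 4 mice against 4, intervals of the markers spanned from -1.05 (Bmp2) to 1.64 (Lyve1) on the log2 scale.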
